A study of Mus musculus with 15 samples.

Results

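The genes described here are the 10 members of the *Myc*, *Max* and *Mxd* network, namely *Myc*, *Mycn*, *Max*, *Mlx*, *Mxd1*, *Mxi1*, *Mxd3*, *Mxd4*, *Mnt* and *Mga*. They were chosen by name, and all 10 were found among the 41388 mouse genes counted. RNA was sequenced from A20, a BALB/c mouse B-cell lymphoma line, in 5 forms with 3 libraries each. These were A20 parental (*Foxp1* wild type), E6 clone 1 (E6.1) and E6 clone 2 (E6.2), which carry a CRISPR mutation in *Foxp1* exon 6, and E7 clone 1 (E7.1) and E7 clone 2 (E7.2), which carry one in exon 7. The cells were untreated, the 3 libraries of a line came from separate passages, so that p values measure the spread between passages, and each edited line grew from a single cell, so a clone's own peculiarities and the loss of Foxp1 cannot be told apart within 1 clone. The comparison of each clone with A20 parental asks which transcripts change when the transcription factor Foxp1 is disrupted.

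Myc is a basic helix-loop-helix leucine zipper protein that binds DNA only as a dimer with Max, at the E-box, and drives genes of growth, ribosome production and metabolism. The Mxd proteins (with Mxi1 as a member of that family), Mnt and Mga also bind these sites as dimers with Max, so they compete with Myc. Mxd and Mnt dimers recruit the Sin3 and histone deacetylase corepressor, Mga brings a Polycomb complex, and Mlx is a Max-like partner for some Mxd proteins, Mnt and the nutrient-sensing Mondo proteins. In B cells Myc is known for its role in germinal centres and in lymphoma.

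The E-box, CACGTG, is the letter sequence through which these proteins read promoters, and it was searched on both strands in RefSeq promoter windows (GRCm38.p6, 250 bases before to 50 after each start). *Myc* was not matched. The other 9 members had 11 windows. Of these windows, 4 (36.4%) held an E-box, 1 each of *Max*, *Mlx*, *Mnt* and *Mxd4*, against 7.15% of all 32851 windows. These 4 sites are shown because they lie in genes of the network itself, with the E-box in capitals and each sequence read along the gene's own strand.
*Max* (chr12:76962234-76962263, minus strand): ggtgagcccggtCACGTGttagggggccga
*Mlx* (chr11:101087238-101087267, plus strand): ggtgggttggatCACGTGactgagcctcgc
*Mnt* (chr11:74830789-74830818, plus strand): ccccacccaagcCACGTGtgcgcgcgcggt
*Mxd4* (chr5:34187912-34187941, minus strand): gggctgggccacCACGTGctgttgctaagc
The E-box began 3 bases before the RefSeq start in *Max*, 40 before it in *Mlx*, 123 in *Mnt* and 219 in *Mxd4*. No E-box was found in the windows of *Mycn*, *Mxd1*, *Mxd3*, *Mxi1* or *Mga*. The forkhead letters TGTTTAC, also searched on both strands, matched 1 of the 11 windows, at the start of *Mxi1* for which they lay 231 bases upstream, against 3.65% of all windows. A match describes the letters only, and binding was not measured here.

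Total counts ran from 26328054 to 39181530 per library. The 8 B-cell markers summed to between 2961 and 4549 CPM (counts scaled to a common library size, with TMM normalization) in every library, whereas 6 T-cell markers never exceeded 0.607 CPM in sum and *Cd3e* and *Cd8b1* were at 0 throughout. The 4 plasma-cell markers summed to between 147 and 235 CPM in 13 libraries and to 370.4 and 634 CPM in library 3 of E6.2 and library 3 of E7.2, most of it *Xbp1*. Another of them, *Prdm1*, was called lower in E6.2 (log2 −2.58, edgeR adjusted p = 0.0108). Myeloid markers summed to 0.421 to 8.10 CPM and natural killer markers to 0.643 to 3.93. The part of these markers in the results below was not tested. *Foxp1* itself stood at 138 ± 32.7 CPM in A20 parental (SD, n = 3), 56.8 ± 13.0 in E7.1, 43.0 ± 8.19 in E7.2, 104 ± 4.60 in E6.1 and 106 ± 2.38 in E6.2. Its transcript was called lower in E7.1 (log2 fold change −1.29, edgeR adjusted p = 0.00688) and E7.2 (−1.69, edgeR adjusted p = 0.00116) and not in the E6 clones; counts over the whole gene do not show a small edit in an exon. Without library 2 of A20 parental the *Foxp1* call in E7.1 was lost (−1.13, edgeR adjusted p = 0.0533). Library 3 of E7.2 stood apart from libraries 1 and 2 of its line, with a chi-square per gene of 341 and 424 against 39.6 between those. In E6.2 library 1 lay furthest out, at 426 from library 2 and 727 from library 3, which were 294 apart (1 would be sampling noise alone). The deviations of library 3 of E6.2 and library 3 of E7.2 over all tested genes correlated more with each other (r = 0.451, across genes, which are not independent) than those of any other 2 libraries of different lines.

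Among the members, library 3 of E6.2 lay above the mean of its line on the log2 CPM scale by 0.62 for *Mlx*, 0.60 for *Mxi1*, 0.57 for *Mxd1* and 0.57 for *Mnt*. In library 3 of E7.2 the same was seen for *Mxd1* (0.46), *Mlx* (0.36), *Mxi1* (0.35) and *Mxd4* (0.32), while *Mxd3* lay below by 1.12. *Mga* (−0.34) and *Mxd3* (−0.33) lay below in library 3 of E6.2. *Myc* and *Max* deviated by 0.07 and 0.18 in library 3 of E6.2 and by 0.04 and 0.07 in library 3 of E7.2. Library 1 of E6.2 deviated in the opposite direction for *Mxd1* (−0.47), *Mxi1* (−0.44), *Mlx* (−0.32), *Mnt* (−0.30) and *Mga* (0.42). Values without library 3 of E6.2 or of E7.2 are given beside several of the results below.

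**Figure D1:**
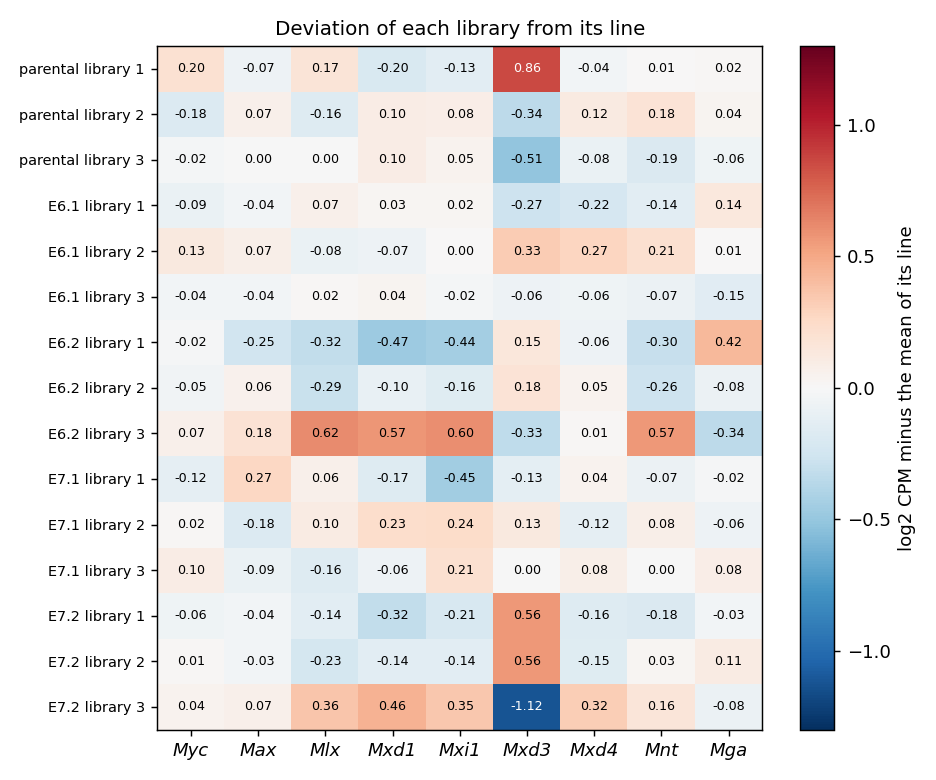
Each cell gives the log2 CPM of a member (columns) in a library (rows) minus the mean of its line, in colour and as a number. *Mlx*, *Mxd1*, *Mxi1* and *Mnt* are high together in library 3 of E6.2, and the lowest value, −1.12, is that of *Mxd3* in library 3 of E7.2.

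By transcript level per exon length, *Myc* and *Max* were the highest members in A20, and the Mxd family was much lower. Protein was not measured. Without length scaling the median ratio of *Mga* to *Myc* was 2.15. *Mycn*, the paralog of *Myc* best known from neural tumours (ENSMUSG00000037169, chr12:12936096-12941914), had 0 counts in all 15 libraries, which allows at most 3 counts per library, or 0.118 CPM at the shallowest depth. The other 9 members passed the filter on low counts. Divided by exon length, *Max* had the highest median level over the 15 libraries, 62.6 CPM per kb, with a range of 47.3 to 85.5. *Myc* followed with 55.1 CPM per kb and a range of 43.6 to 69.9, so that the ranges of these dimer partners overlapped.

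Below this pair came *Mga*, with a range of 15.7 to 30.9 CPM per kb, and *Mlx*, with a median of 14.7. *Mga* encodes a very large protein, and its exon length in the deposited tables was 15340 bases, the longest of the members. The Mxd and Mnt repressors were lower, at 9.30 CPM per kb for *Mxi1*, 6.56 for *Mxd4*, 5.29 for *Mnt* and 5.05 for *Mxd1*. *Mxd3*, whose expression is usually tied to S phase, was by far the lowest measured member, at 0.392 CPM per kb and between 10 and 108 counts per library.

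**Figure D2:**
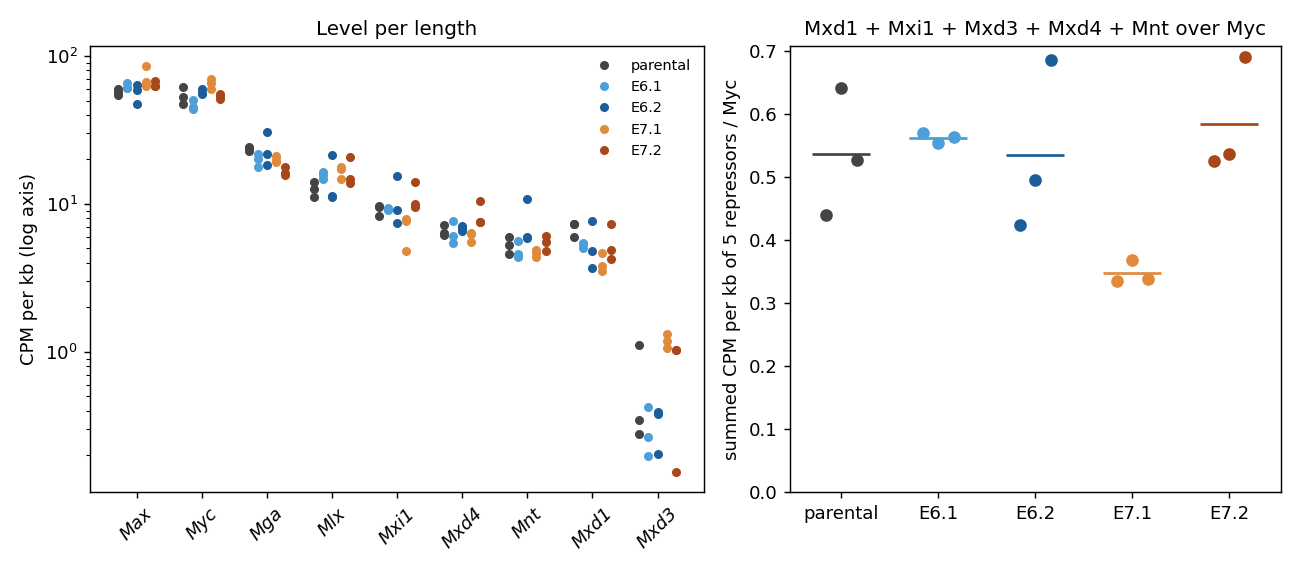
The left panel plots the level of each measured member in CPM per kb on a log axis, 1 point per library and coloured by line, ordered by median. The right panel plots the summed CPM per kb of *Mxd1*, *Mxi1*, *Mxd3*, *Mxd4* and *Mnt* divided by that of *Myc*, with points for libraries and bars for the mean of each line; the 3 libraries of E7.1 (0.335 to 0.368) lie below the other 12.

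*Myc*, the transcriptional activator of the network (ENSMUSG00000022346, chr15:61985341-61990374), measured 171, 132 and 146 CPM in the A20 parental libraries. In E6.1 it measured 121, 140 and 125 CPM, and in E6.2 156, 152 and 165. The E7.1 libraries held 166, 183 and 193 CPM and those of E7.2 142, 149 and 153. Every clone overlapped A20 parental, and E7.1 was the only line whose mean (180.6 ± 13.9 CPM, SD, n = 3) lay above all 3 parental values. E6.1 was the only line whose mean (128.7 ± 10.1 CPM, SD, n = 3) lay below all 3.

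Relative to A20 parental, *Myc* differed on the log2 scale by 0.27 in E7.1, −0.01 in E7.2, −0.22 in E6.1 and 0.08 in E6.2. None of these was called, with an edgeR adjusted p of 0.228 at the lowest, in E7.1. The 95% intervals were narrow, from 0.01 to 0.53 in E7.1, −0.27 to 0.25 in E7.2, −0.48 to 0.04 in E6.1 and −0.18 to 0.34 in E6.2, so a 2-fold change of *Myc* in either direction lay outside all 4. Fewer cells with the transcript and less of it per cell cannot be told apart in bulk RNA, here and below. *Myc* also varied little between passages, with a pooled SD of 0.115 on the log2 CPM scale against a median of 0.264 over all tested genes.

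*Max*, the obligate partner (ENSMUSG00000059436, chr12:76937269-76962248), measured 110, 121 and 115 CPM in A20 parental. Its values were 171, 125 and 134 CPM in E7.1, the highest line, and 94.9, 117 and 128 CPM in E6.2, the lowest. The E6.1 libraries (121 to 131 CPM) and those of E7.2 (126 to 135) lay just above the parental ones without overlap. The log2 differences from A20 parental ran from −0.02 in E6.2 to 0.32 in E7.1 and none was called (lowest edgeR adjusted p = 0.216). Without library 1 of E7.1 the difference in that clone was 0.18.

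*Mlx*, the partner shared with the Mondo proteins (ENSMUSG00000017801, chr11:101087277-101092207), measured 28.3, 22.4 and 25.2 CPM in A20 parental and 34.4, 35.3 and 29.3 in E7.1. Its log2 differences from A20 parental were positive in all 4 clones, between 0.22 and 0.38, and none was called. In E6.2 the libraries held 22.3, 22.7 and 43.2 CPM, and without library 3 the difference in that clone was −0.15. Library 1 of E6.2, the furthest out over all genes, was the lowest for *Mlx*, so leaving out library 3 shows 1 direction only. In E7.2 it was 0.38, and 0.21 without library 3 of that clone. Without library 3 of E6.2 and of E7.2, *Mlx* was called higher in E7.1 (log2 0.41, edgeR adjusted p = 0.0321). *Mlx* overlaps *Psmc3ip* on the opposite strand, and the counting did not use strand, so its level is uncertain.

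*Mxd1*, the Mxd member known for its rise when cells leave the cycle (ENSMUSG00000001156, chr6:86647044-86669159), measured 27.9, 34.3 and 34.3 CPM in A20 parental and 16.4, 21.8 and 17.7 in E7.1. The E6.1 libraries held 25.2, 23.6 and 25.3 CPM, those of E6.2 17.2, 22.4 and 36.0, and those of E7.2 19.8, 22.6 and 34.3. Both E6.1 and E7.1 lay wholly below A20 parental, and in E6.2 and E7.2 only library 3 was as high as the parental libraries. The log2 difference from A20 parental was negative in all 4 clones, at −0.79 in E7.1, −0.33 in E7.2, −0.38 in E6.1 and −0.35 in E6.2. Without library 3 of the same clone the difference was −0.57 in E7.2 and −0.68 in E6.2, and without library 1 it was −0.17 and −0.15.

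The difference of *Mxd1* in E7.1 had a 95% interval of −1.32 to −0.25 and an edgeR adjusted p = 0.103, and was not called. DESeq2 called it (log2 −0.78, adjusted p = 0.0390), as did edgeR without library 3 of E6.2 (−0.77, adjusted p = 0.0354) and without both library 3s (−0.76, adjusted p = 0.0104). In the last of these fits *Mxd1* was also called lower in E6.2 (−0.70, edgeR adjusted p = 0.0491). That fit left out the E6.2 library in which *Mxd1* was highest (36.0 CPM). Leaving it out by itself lowers the difference, so the call in E6.2 adds no support. All 4 comparisons share the same 3 parental libraries, so their common sign is not independent evidence.

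*Mxi1* (ENSMUSG00000025025, chr19:53310506-53375810), an Mxd family repressor, measured 46.9, 54.5 and 53.3 CPM in A20 parental and 27.2, 44.2 and 43.3 in E7.1. E7.1 lay below all other lines in mean, and its libraries did not overlap those of A20 parental. The log2 difference was −0.43 (95% interval −0.96 to 0.10, edgeR adjusted p = 0.349) and was not called, and without library 1 of E7.1 it was −0.23. In E6.2 and E7.2 library 3 was again the highest of its line, at 86.5 and 78.6 CPM. *Mxi1* overlaps the predicted gene *Gm10197* on the opposite strand.

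*Mxd3* (ENSMUSG00000021485, chr13:55325168-55329758) showed the largest fold differences and the lowest counts. A20 parental held 76, 27 and 20 counts, E6.1 held 13, 27 and 22, and E6.2 held 20, 27 and 14. E7.1 held 83, 108 and 83 counts and E7.2 held 81, 80 and 10. The E7.1 libraries lay together near the top, whereas A20 parental and E7.2 each had a library far from the other two. In CPM this was 1.20 ± 0.953 for A20 parental, 2.49 ± 0.268 for E7.1, 1.53 ± 1.05 for E7.2, 0.615 ± 0.242 for E6.1 and 0.675 ± 0.220 for E6.2 (SD, n = 3).

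The log2 difference of *Mxd3* in E7.1 was 1.05, with a 95% interval from −0.26 to 2.37, which spans both no change and more than 4-fold. Leaving out library 1 of A20 parental raised it to 1.94 (edgeR adjusted p = 0.0921). E7.1 exceeded E6.1 by 2.01 on the log2 scale (edgeR adjusted p = 0.0885) and E6.2 by 1.88 (edgeR adjusted p = 0.0576), and neither was called. In the test of any difference among the 5 lines *Mxd3* had an edgeR adjusted p = 0.141, which fell to 0.0321 without library 3 of E7.2. *Mxd3* overlaps *Prelid1* on the opposite strand.

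*Mxd4* (ENSMUSG00000037235, chr5:34173887-34187720) and *Mnt* (ENSMUSG00000000282, chr11:74830920-74845725), the broadly expressed repressor of the network are 2 further Max partners. *Mxd4* measured 24.9, 27.8 and 24.1 CPM in A20 parental and 29.1, 29.4 and 40.9 in E7.2, where it was highest. The log2 difference was 0.37 (95% interval 0.03 to 0.72, edgeR adjusted p = 0.355) and was not called, and without library 3 of E7.2 it was 0.23. *Mnt* measured 24.5, 27.6 and 21.2 CPM in A20 parental. In E6.2 it measured 27.1, 27.8 and 49.9 CPM, and the difference of 0.52 on the log2 scale (edgeR adjusted p = 0.326) was 0.19 without library 3. Here too library 1 of E6.2 was the lowest, so this shows 1 direction only.

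*Mga* (ENSMUSG00000033943, chr2:119897228-119969581), the Max partner of a Polycomb repressive complex, measured 367, 371 and 348 CPM in A20 parental. All 3 libraries of E7.2 were lower, at 249, 274 and 241 CPM, as were those of E6.1 (337, 307 and 275) and E7.1 (303, 294 and 325). E6.2 spread from 280 to 474 CPM and enclosed the parental values. The difference in E7.2 was −0.51 on the log2 scale (95% interval −0.87 to −0.14, edgeR adjusted p = 0.258), and −0.43 without both library 3s (edgeR adjusted p = 0.132); neither was called.

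**Figure D3:**
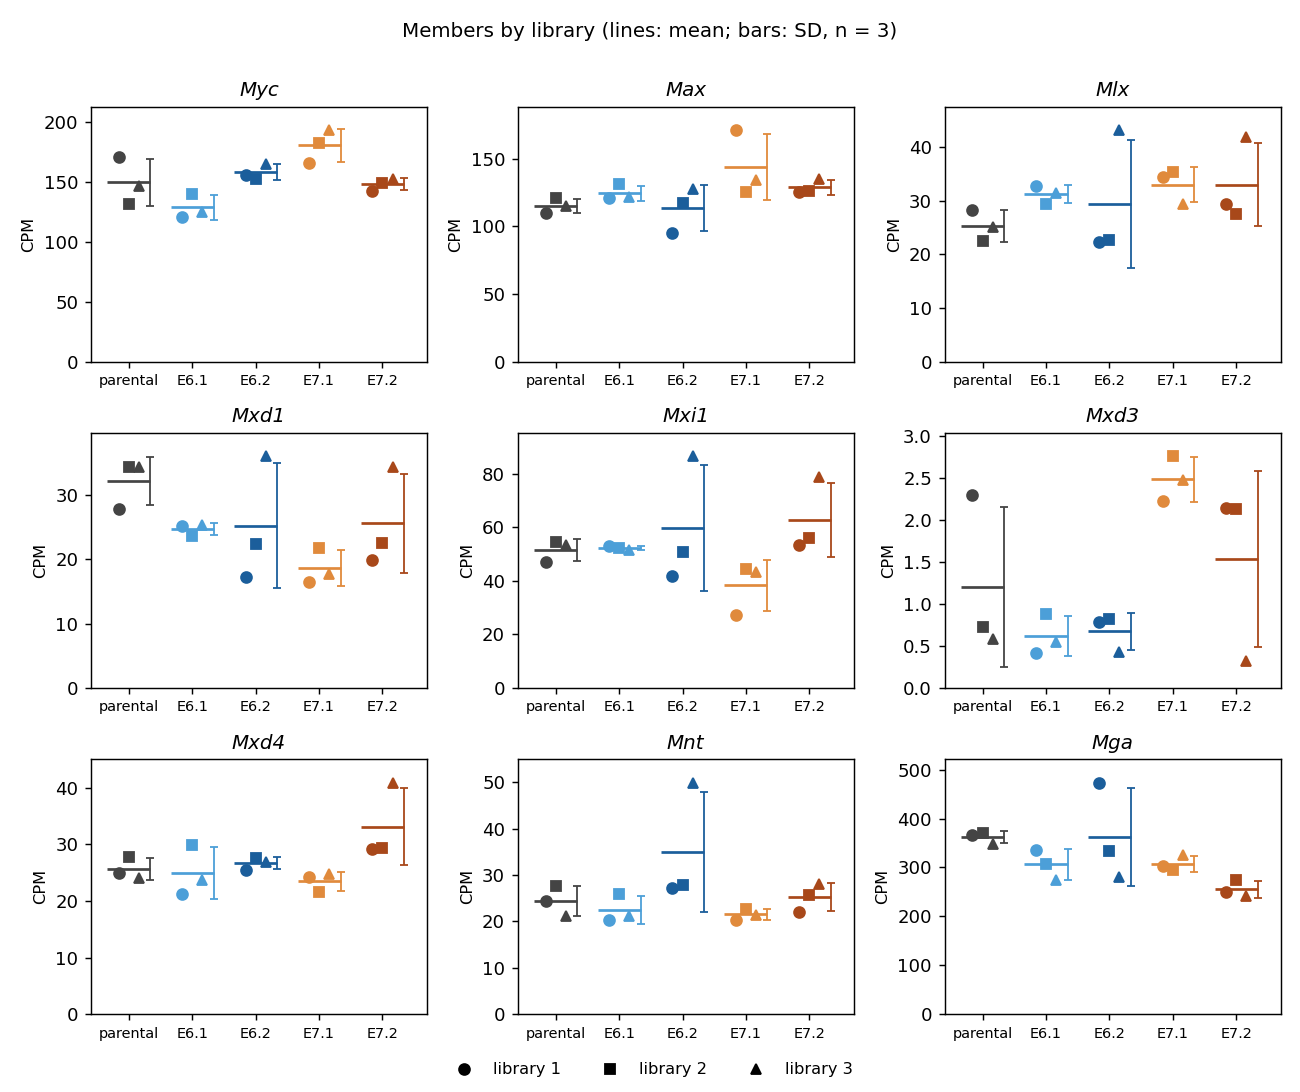
CPM of the 9 measured members in each library, with the marker shape giving the library number, horizontal lines the mean of the line and bars the SD (n = 3). E7.1 is highest for *Myc*, *Max* and *Mxd3* and lowest for *Mxd1*, *Mxi1*, *Mxd4* and *Mnt* in mean, and library 3 of E6.2 stands high for *Mlx*, *Mxd1*, *Mxi1* and *Mnt*.

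No member was called in any of the 36 comparisons of a clone with A20 parental at an edgeR adjusted p under 0.05. The share of all 13904 tested genes called was itself small, 1.22% in E7.1, 0.295% in E7.2, 0.324% in E6.1 and 1.17% in E6.2. At an unadjusted p under 0.05 there were 3 members in E7.1 against 20% of all genes, 2 in E7.2 against 13.3%, 1 in E6.2 against 13.1% and 0 in E6.1 against 6.71%. DESeq2 called 1 member, in E7.1, where it called 8.87% of the 13046 genes to which it gave an adjusted p, and the fit without both library 3s called 3, in which 15.2% of all genes were called in E7.1 and 2.26% in E6.2. The log2 differences ran from −0.96 to 1.05, both in *Mxd3*, and from −0.79 to 0.52 in the other 8 measured members. For 31 of the 36 differences the 95% interval lay within 2-fold in both directions; the exceptions were the 4 of *Mxd3* and that of *Mxd1* in E7.1.

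**Figure D4:**
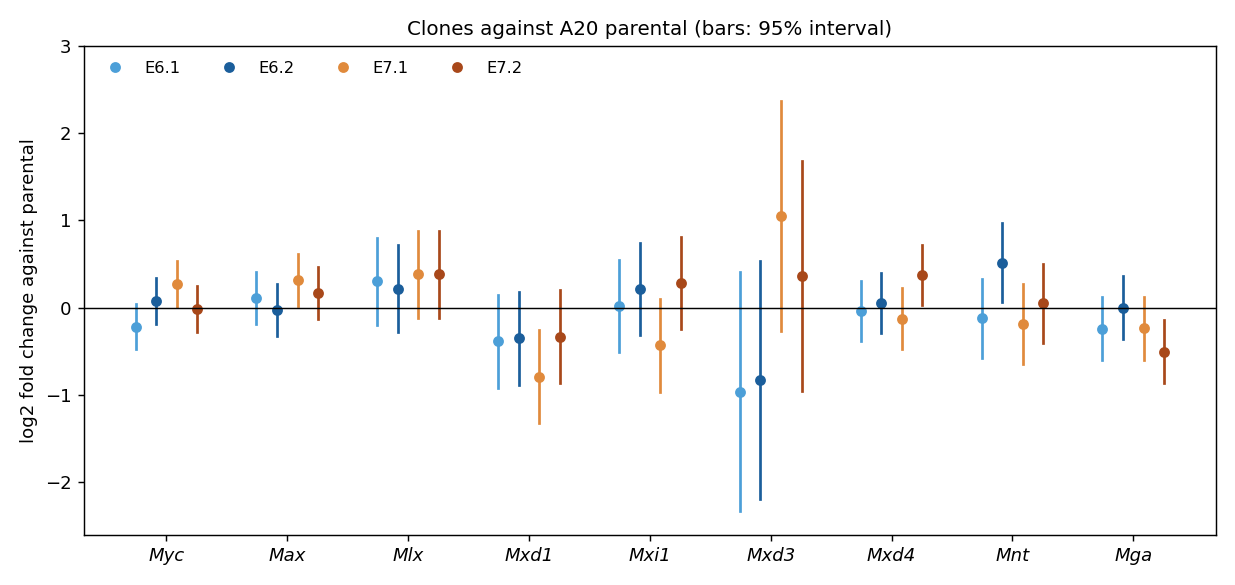
Log2 fold change of each measured member in each clone against A20 parental, with the 95% interval of the edgeR fit as bars. The 4 intervals of *Mxd3* are the widest, and the interval of *Mxd1* in E7.1 runs from −1.32 to −0.25.

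The libraries of a clone did not overlap those of A20 parental for 5 of the 9 measured members in E7.1, where this held for 32% of all tested genes. It held for 3 in E7.2 (24.2% of all genes), 4 in E6.1 (22.5%) and 0 in E6.2 (14.7%). In E7.1 the 5 members were *Max* and *Mlx*, which were higher, and *Mxd1*, *Mxi1* and *Mga*, which were lower.

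In the test of any difference among the 5 lines no member was called, against 6.28% of all genes, although 3 members, *Myc* (adjusted p = 0.112), *Mxd3* and *Mnt* (edgeR adjusted p = 0.144), had an unadjusted p under 0.05, as did 27.8% of all genes. DESeq2 called those 3 members, against 22.6% of the 13855 genes to which it gave an adjusted p, and the fit without both library 3s called 4, *Myc*, *Mlx*, *Mxd1* and *Mxd3*, against 28.6% of all genes. Of the 54 differences between 2 clones, 2 were called. *Myc* was higher in E7.1 than in E6.1 by 0.49 on the log2 scale (SE 0.12, edgeR adjusted p = 0.0464), a comparison in which 3.24% of all genes were called and the libraries of the 2 clones did not overlap in 43.2%. *Mnt* was lower in E7.1 than in E6.2 by a log2 difference of −0.70 (SE 0.21, edgeR adjusted p = 0.0387), in which 16.9% were called. Without library 3 of E6.2 the *Mnt* difference was −0.35 and was not called (edgeR adjusted p = 0.102), and the *Myc* call was lost when any single library of E6.1 or E7.1 was left out (edgeR adjusted p from 0.0571 to 0.232). The *Myc* call was also lost with replicate number as a block in the fit.

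The lines were ordered for *Myc* as E6.1, E7.2, A20 parental, E6.2 and E7.1, from low to high, and for *Mxd1* as E7.1, E6.1, E6.2, E7.2 and A20 parental. No 2 neighbours in the order of any member were called different. Only the extremes of *Myc* and of *Mnt* were, as given above. The other 4 pairs of clones held no member call, and the share of all genes called in them was 1.24% for E6.2 against E6.1, 0.352% for E7.2 against E6.1, 2.24% for E7.2 against E6.2 and 0.59% for E7.2 against E7.1. Of the 9 measured members, the libraries did not overlap for 5 between E7.2 and E7.1 (25.1% of all genes), 4 between E7.1 and E6.1, 4 between E7.1 and E6.2 (31.8%), 3 between E7.2 and E6.1 (29.7%), 2 between E6.2 and E6.1 (17.5%) and 2 between E7.2 and E6.2 (15.2%).

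Relative to *Myc*, on the per-length scale, the summed level of *Mxd1*, *Mxi1*, *Mxd3*, *Mxd4* and *Mnt* was 0.440, 0.642 and 0.527 in the A20 parental libraries. E6.1 gave 0.570, 0.555 and 0.565, E6.2 gave 0.424, 0.496 and 0.687, and E7.2 gave 0.526, 0.536 and 0.691. E7.1 gave 0.335, 0.368 and 0.339. All 3 libraries of E7.1 lay below the other 12, with or without the library 3s of E6.2 and E7.2. With *Mga* added, the ratio was 0.642 to 0.664 in E7.1 and 0.828 to 1.15 in the other 12 libraries. This ratio combines members whose values were known, so it is given as a description with no test.

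The ratio of *Max* to *Myc* showed no such separation, at 0.888 to 1.27 in A20 parental and 0.948 to 1.43 in E7.1. On the log2 CPM scale, *Mxd1* and *Mxi1* had r = 0.77 over the 15 libraries, which share the line and the deviating libraries. The genes whose level followed *Myc* most closely over the 15 libraries were *B4galt5* (r = 0.91), a galactosyltransferase gene, *Cmtm4* (r = 0.89) and *Tyro3* (r = 0.87), a receptor tyrosine kinase gene. Those most like *Mxd3*, the measured member with the next smallest p after *Myc* in the test among the lines, included *Pimreg* (r = 0.97), a mitotic regulator gene, and *H2afx* (r = 0.94), which encodes a histone variant. These are correlations over libraries of only 5 lines and were among the highest of 13904 genes.

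The wider pathway was described with 93 genes in lists of cofactors, turnover factors, corepressors and targets, of which 87 were tested. Of these, 3 were called in E7.1, 0 in E7.2, 0 in E6.1 and 1 in E6.2, where 1.22%, 0.295%, 0.324% and 1.17% of all tested genes were called. The count in E7.1 ran from 0, without library 2 or 3 of A20 parental or library 1 or 3 of E7.1, to 14, without library 3 of E7.2. Without both library 3s there were 33 in E7.1, 2 in E7.2, 1 in E6.1 and 2 in E6.2, in a fit that called 15.2%, 1.53%, 0.924% and 2.26% of all genes in these clones.

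The list of 32 genes that Myc is known to activate, which includes ribosome biogenesis, nucleotide and glycolysis genes, had 31 tested. In E7.1, 29 of these were higher than in A20 parental, the median log2 difference was 0.38 and 12 had an unadjusted p under 0.05, against a median of −0.02 and 20% of genes under that p over all genes. The median was 0.23 without library 1 of E7.1. In E7.2 23 were higher (median 0.14), in E6.1 22 (0.06) and in E6.2 17 (0.02); the latter fell to 5 (−0.11) without both library 3s. Only 2 were called, both in E7.1. *Bop1*, which acts in maturation of the large ribosomal subunit, measured 41.4 ± 12.0 CPM in A20 parental and 92.4 ± 23.6 in E7.1 (SD, n = 3; log2 1.16, edgeR adjusted p = 0.0223). *Ldha*, which makes lactate at the end of glycolysis, measured 277 ± 100 CPM in A20 parental and 796 ± 285 in E7.1 (log2 1.52, edgeR adjusted p = 0.0441).

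*Ldha* also measured 569 ± 192 CPM in E7.2, a log2 difference of 1.04 that was not called (edgeR adjusted p = 0.241). A promoter window further downstream held 0 E-boxes. The upstream window held 2 E-boxes, shown here because *Ldha* is the target with the largest called difference (GRCm38.p6, plus strand, E-box in capitals).
*Ldha* upstream site (chr7:46845647-46845676): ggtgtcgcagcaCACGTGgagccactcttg
*Ldha* downstream site (chr7:46845744-46845773): cggcccagcctaCACGTGggttcccgcacg
They began 145 and 48 bases before the RefSeq start of the upstream window. Of the 26 genes of this list that had a window, 8 held an E-box. Counted by window this was 9 of 32 (28.1%), against 7.15% of all windows.

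In the list of 8 genes that Myc is known to hold down, 7 were tested, and the medians of their log2 differences were −0.78 in E7.1, 0.18 in E7.2, −0.11 in E6.1 and 0.47 in E6.2. Without library 1 of E7.1 its median was −0.52. *Cdkn1b*, the p27 inhibitor of cyclin-dependent kinases, fell in E7.1, from 64.5 ± 16.6 CPM in A20 parental to 30.9 ± 4.62 (SD, n = 3; log2 −1.06, edgeR adjusted p = 0.0490). *Ndrg1*, a stress-responsive gene, had the smallest p of its list in the test among the 5 lines (edgeR adjusted p = 0.0208), at 4.53 ± 2.02 CPM in E7.1 and 16.6 ± 3.70 in E6.2. The calls of *Bop1*, *Ldha* and *Cdkn1b* in E7.1 were each lost when library 2 of A20 parental was left out, with edgeR adjusted p of 0.138, 0.228 and 0.240, and the log2 differences were then 1.08, 1.39 and −0.88. Over all 15 ways of leaving out a library, the call held in 11 for *Bop1*, 4 for *Ldha* and 4 for *Cdkn1b*.

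**Figure D5:**
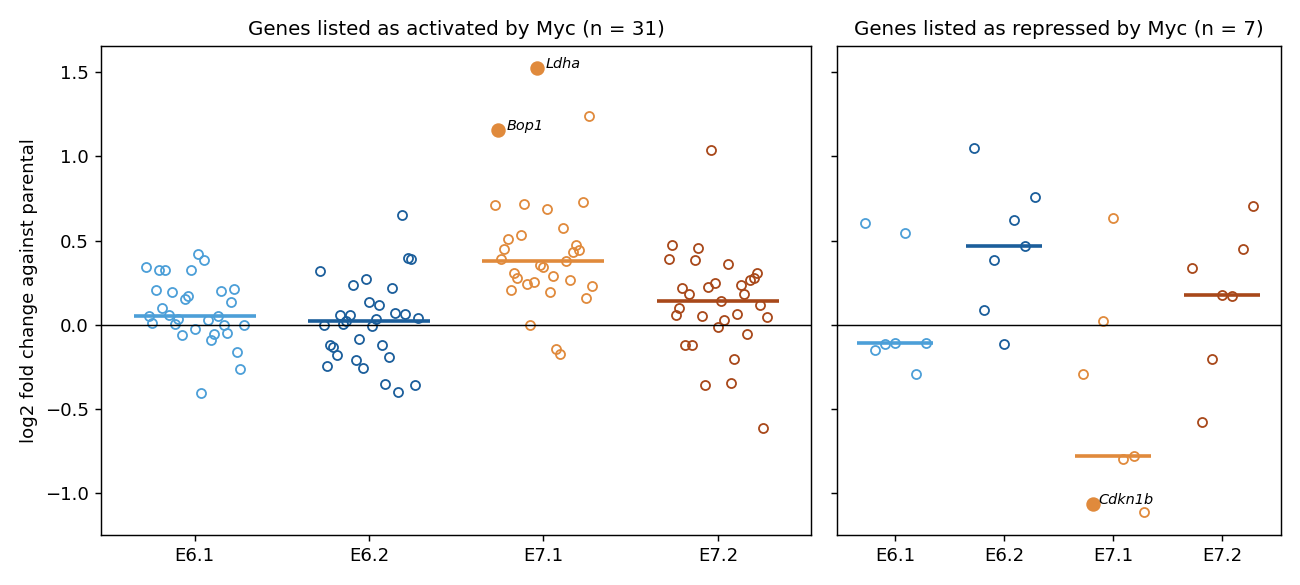
Log2 fold change against A20 parental of the tested genes listed as activated (left, n = 31) or repressed (right, n = 7) by Myc, 1 point per gene, with bars at the median and filled, named points for genes called at an edgeR adjusted p under 0.05. In E7.1 the medians are 0.38 and −0.78.

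Among the 10 genes of the Sin3 and histone deacetylase corepressor that Mxd and Mnt proteins recruit, *Sap30*, a subunit of that complex, was the only one called in a clone against A20 parental. Of the 10, 3 were called higher in E7.1 than in E6.2, a comparison in which 16.9% of all tested genes were called in either direction. *Sap30* measured 64.0 ± 4.51 CPM in A20 parental, 45.1 ± 3.60 in E7.1, 96.9 ± 9.87 in E7.2, 107 ± 4.04 in E6.1 and 33.0 ± 7.18 in E6.2 (SD, n = 3). The libraries of no clone overlapped those of A20 parental. The call was in E6.2 (log2 −0.96, edgeR adjusted p = 0.00432), and the test among the 5 lines gave an edgeR adjusted p = 3.5e-05. The clones of the same exon thus lay on opposite sides of A20 parental, and the difference between E6.2 and E6.1 was −1.69 on the log2 scale. With only the 6 libraries of E6.2 and A20 parental in the fit, the call of *Sap30* was lost (log2 −0.95, edgeR adjusted p = 0.129).

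None of the 15 Myc cofactor genes, the 10 genes of Myc turnover, the 9 genes of the Mga complex or the 3 tested genes of the Mondo and *Mycl* list was called in a clone against A20 parental, at 0 to 6 genes per list and clone with an unadjusted p under 0.05. The highest counts were in E7.1, with 6 of 15 cofactor genes and 6 of 9 genes of the Mga complex, where 20% of all genes had such a p. DESeq2 called 2 cofactor genes and 3 genes of the Mga complex in E7.1, against the 8.87% given above. Their smallest p values in the test among the lines belonged to *Ruvbl1*, a chromatin-remodelling ATPase gene (edgeR adjusted p = 0.0759), *Cip2a*, whose product stabilises Myc (0.142), *E2f6* (0.0982) and *Mycl* (0.155). *Mycl*, the remaining Myc paralog, was low, at 2.17 ± 1.07 CPM in A20 parental and 0.765 ± 0.459 in E7.1. *Txnip*, a target of the Mondo and Mlx dimer and the only tested gene of its list of 4, measured 190 ± 86.6 CPM in A20 parental and 115 ± 26.7 in E7.1 (edgeR adjusted p = 0.390). *Pvt1*, the non-coding neighbour of *Myc*, differed by 0.64 on the log2 scale in E6.2 and −0.58 in E7.1, and neither was called.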

How the data were processed

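RNA was sequenced on an Illumina HiSeq4000. The authors deposited counts per gene for each library, made, per the file headers, from HISAT alignments with featureCounts 1.5.0 on GRCm38 with ERCC spike-ins (all at 0), by read pair, without strand, and without pairs that aligned to several places or overlapped several genes. Symbols were matched for 40254 of 41388 genes. With R 4.3.3, edgeR 4.0.16 normalized (TMM), filtered (filterByExpr, 13904 genes kept) and fitted 1 quasi-likelihood model to all 15 libraries by line. Contrasts were clone against A20 parental, clone against clone and any difference among the 5 lines, each with Benjamini-Hochberg adjustment over all tested genes and called under 0.05. Alternatives were DESeq2 1.42.0, other scaling, no filter, a replicate block and leaving out libraries. The fit was tested on simulated counts in which E7.1 differed from A20 parental. It called 49 of 100 genes changed 2-fold, 95 of 100 changed 4-fold and 10 unchanged genes. CPM per kb used the deposited exon lengths. No 2 libraries of a line agreed within sampling noise (chi-square per gene at least 32.1, where 1 is noise alone). Replicate numbers were not used to pair the libraries in the main fit. Intervals and floors of 3 counts cover counting error or library spread only. The genes named are the members, *Foxp1*, every listed pathway gene called against A20 parental, the gene with the smallest p among the lines in each list of 4 or more, and the 3 genes most correlated with *Myc* and with *Mxd3*, of which 1 is not reported here. The members and lists were chosen with earlier results of these data known.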

Additional observations from a re-analysis of the deposited data

Results flagged for a closer look

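Clones differed from each other in 2 members. For *Myc*, E7.1 lay above E6.1 by 0.49 on the log2 scale, with means of 180.6 and 128.7 CPM. For *Mnt*, E7.1 lay below E6.2 by a log2 difference of −0.70, with means of 21.5 and 34.9 CPM, of which library 3 of E6.2 alone held 49.9. Each is a direct difference between clones into which the parental mean does not enter, and the cause of neither difference was tested. Of the 15 ways of leaving out a library, the *Myc* call held in 4, without library 1 of A20 parental, library 1 or 3 of E6.2 or library 3 of E7.2. The *Mnt* call held in 6 and was lost without library 2 or 3 of A20 parental, 1 or 3 of E6.1, 3 of E6.2, 2 of E7.2 or any of E7.1.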

How the results depend on the processing

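Over the members, 0 calls against A20 parental became 1 with DESeq2 and 3 without library 3 of E6.2 and of E7.2, and 0 to 1 when single libraries were left out. Over all genes the 418 calls became 686 with no filter on low counts, 1964 with DESeq2, 2840 without both libraries and 180 to 1438 with single libraries left out, the highest without library 3 of E6.2 and the lowest without library 3 of A20 parental. Between clones, the 2 member calls became 1 with no filter, 4 with DESeq2, 6 without both libraries and 0 to 5 with single libraries left out, and the 3412 calls over all genes became 6790 with DESeq2, 10649 without both and 1219 to 7684 with single libraries left out, the lowest without library 1 of E7.1. Among the 5 lines, 0 members became 3 with DESeq2, 4 without both and 0 to 1 with single libraries left out, and 873 genes became 1617 with no filter, 3125 with DESeq2, 4079 without both and 353 to 2899 with single libraries left out. The median ratio of the 5 repressors to *Myc* moved from 0.527 to 0.909 without length scaling. No called value changed sign under any alternative run. The causes of these changes were not tested.

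Between a clone and A20 parental, the deviations of libraries with the same replicate number had r from −0.147 to 0.262. Between clones, the highest r (0.451) was that of library 3 of E6.2 and library 3 of E7.2, which share a number. The next highest pairs over all lines did not share one. They were library 2 of E6.2 with library 1 of E7.2 (0.355) and library 3 of A20 parental with library 2 of E6.2 (0.327). Whether the numbers mark a shared batch was not tested, so the replicate block is given as an alternative only. It gave 0 member calls against A20 parental and 377 over all genes, 2 and 3099 between clones and 0 and 727 among the lines. With the block the *Myc* difference between E7.1 and E6.1 was no longer called (edgeR adjusted p = 0.0642). Its 2 member calls between clones were thus not the same 2 as in the main fit. The depth of *Mxd3*, 10 to 108 counts per library, limits what can be said of that member.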
